A study of Mus musculus with 2 samples.

Results

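RLTR9, RLTR13 and RLTR17 are groups of long terminal repeats (LTRs) of mouse endogenous retroviruses (ERVs) of the ERVK superfamily, also called class II ERVs. They were chosen by name alone, as every family whose name starts with RLTR13, RLTR17 or RLTR9 with no further digit. The name rule found 24 of the 634 transposable element families measured: 8 RLTR9 families, 15 RLTR13 families and 1 RLTR17 family. All 24 are listed as ERVK and 0 of them are internal (coding) parts.

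An LTR flanks each end of a retroviral insertion and carries its promoter and enhancer. Most old insertions have lost their internal part by recombination, and the LTR that remains can still bind transcription factors. RLTR9 and RLTR13 copies are known for this in early mouse lineages. RLTR9E and RLTR13D6 copies bind pluripotency factors in embryonic stem (ES) cells, RLTR13D5 copies bind trophoblast factors in trophoblast stem cells, and RLTR17 copies start ES cell noncoding transcripts. Daxx is a histone chaperone that, with Atrx, places the histone variant H3.3 at ERVs and other repeats.

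RNA-seq was used to ask whether ERVs become active when Daxx is lost. The Daxx-deleted culture was made from Daxx fl/fl; RosaCreERT ES cells of a B6/129 background, exposed to 4-hydroxytamoxifen at 1 µM for 48 h and left to recover for 3 days. The control culture was titled WT but is labelled with the same genotype, so it too carried the loxP-flanked Daxx gene and the Cre, and received the solvent DMSO. Both were grown with LIF on mitomycin C-inactivated feeder cells, and RNA of feeder cells may be present. 4-hydroxytamoxifen was given to the Daxx-deleted culture alone, so an effect of the compound and of Daxx loss cannot be told apart. With a single library (n = 1) for each group there is no replicate error and no test, and every "higher" or "lower" describes 2 libraries. Daxx itself and marker genes were not analysed here, since the table holds families and 0 of the listed genes, so the deletion and the labels of the libraries were not checked. The table sums all copies of a family and gives no positions, so whether the counted copies lie at enhancers was not analysed here.

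Levels are in RPKM, reads per kilobase of the family scaled by the authors to exonic reads of protein-coding genes. The depth of the libraries is unknown. Log2 changes are of the Daxx-deleted over the control value, each with 0.001 RPKM added, which understates the change of low families, and plain ratios have nothing added. Counts use a floor (mean level 0.01 RPKM or more, 100 annotated copies or more), which 436 families and 22 of the 24 LTR families pass. RLTR9F, with a mean of 0.0106 RPKM, lay just inside that floor, and RLTR13D4, with 0.00872 RPKM, just outside it.

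Most of these LTR families had slightly more RNA in the Daxx-deleted library, and few moved far. Of the 22 at the floor, 20 were above their control value, against 78.9% of all families. In bulk RNA, fewer cells of a type and less RNA per cell cannot be told apart. With 0.001 RPKM added to both values, RLTR13D1 alone was at least 1.5-fold higher, against 15.1% of all families. RLTR13D5, with a plain ratio of 1.502, fell short of 1.5-fold once that was added. At least 2-fold higher were 0, against 5.28%. RLTR9A2 alone was at least 1.5-fold lower, against 1.38% of all families, and it was also 2-fold lower, against 0.459%. The median log2 change of the 22 was 0.24, beside 0.18 over all 436 families. Over all 107 other ERVK families at the floor the median was 0.25. For the 81 of these whose names do not mark an internal part it was 0.22. Against the median family, 17 of the 22 lay above, where 50.0% of all families lie. Of the 81 ERVK families without an internal mark, 51 lay above the median family and 69 above their control value.

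The shift of the median family is part of the values of every LTR family here. With that shift subtracted, the median of the 22 families was 0.06. Then 0 of the 22 were 1.5-fold higher, against 9.40% of all families at the floor under the same subtraction. Without the floor, 21 of the 24 were above their control value, against 72.9% of all 634 families. The summed level of the 22 was 0.828 RPKM in the Daxx-deleted library and 0.718 RPKM in the control, a ratio of 1.15. For the sums over the 436 families at the floor, in which families of high level weigh most, it was 1.13.

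**Figure D1:**
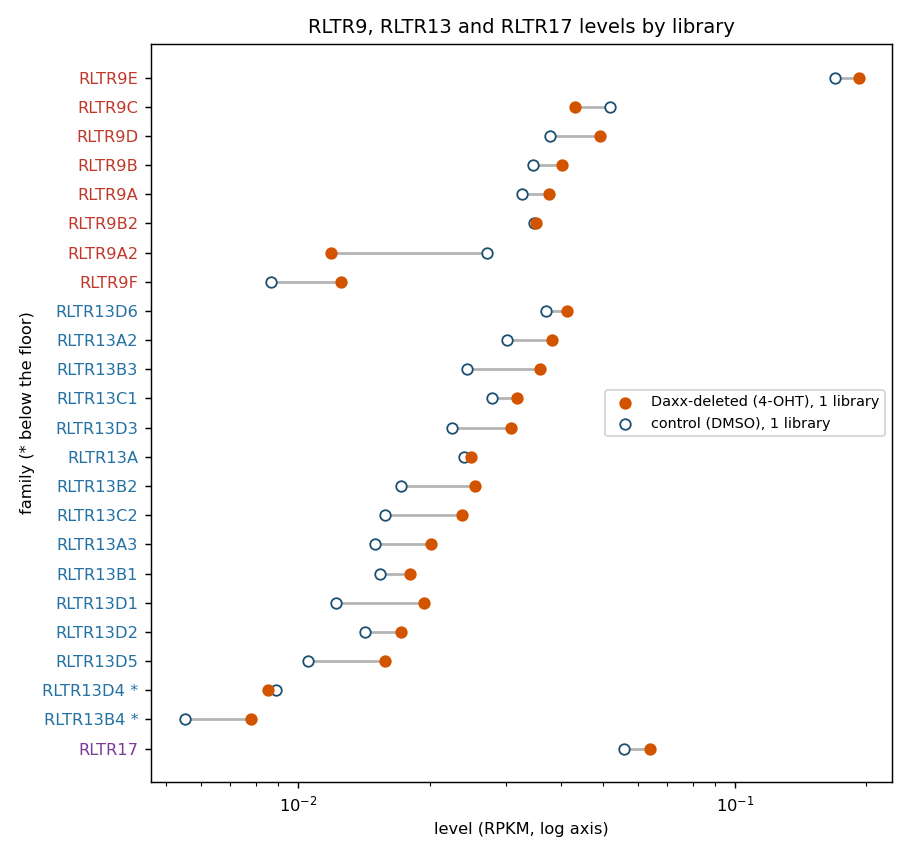
Level of each of the 24 families in RPKM (log axis), with the Daxx-deleted library as filled points and the control as open points, 1 library each; families run down by group and mean level, and stars mark those below the floor. RLTR9E lies apart, at 0.192 RPKM in the Daxx-deleted library and 0.169 RPKM in the control, and RLTR9A2 has the widest gap, with its Daxx-deleted point at 0.0119 and its control point at 0.0270 RPKM.

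Among the RLTR9 families, RLTR9E had the highest level. It had 0.192 RPKM in the Daxx-deleted library and 0.169 RPKM in the control, a ratio of 1.14. It has 1613 annotated copies. Its value was 22.7% of the summed RPKM of the 24 families in the Daxx-deleted library and 23.1% in the control. That is not a share of reads, since RPKM is per kilobase of each family. It ranked 7th of the 150 ERVK families by mean level, and 57th of all 634 families. Its log2 change of 0.18 was that of the median family, from which it differed by 0.01.

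The next RLTR9 families by level were RLTR9C and RLTR9D, and they lay on opposite sides of the control. RLTR9D had 0.0492 RPKM in the Daxx-deleted library and 0.0378 RPKM in the control, a ratio of 1.30. RLTR9C had 0.0432 RPKM in the Daxx-deleted library and 0.0518 RPKM in the control, a ratio of 0.833. RLTR9C was therefore the higher of the pair in the control, and RLTR9D the higher in the Daxx-deleted library. They have 639 (RLTR9C) and 822 (RLTR9D) annotated copies.

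RLTR9A, RLTR9B and RLTR9B2 had closely similar levels in both libraries. RLTR9B had 0.0403 RPKM in the Daxx-deleted library and 0.0346 RPKM in the control. RLTR9A had 0.0375 RPKM in the Daxx-deleted library and 0.0326 RPKM in the control, with 1777 copies. RLTR9B2 had 0.0351 RPKM in the Daxx-deleted library and 0.0347 RPKM in the control. Their ratios were 1.16 for RLTR9B, 1.15 for RLTR9A and 1.01 for RLTR9B2, so RLTR9B2 was nearly level between the libraries.

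RLTR9A2 stood apart from its name relative RLTR9A. It had 0.0119 RPKM in the Daxx-deleted library and 0.0270 RPKM in the control, a ratio of 0.440 and a log2 change of -1.12. Among the 436 families at the floor it ranked 435th by change, and among the 129 ERVK families there it ranked 129th, the lowest. It has 241 annotated copies, the fewest of the RLTR9 families. Between the 24 families it ranked 22nd by level in the Daxx-deleted library and 11th in the control. RLTR9F, the RLTR9 family of lowest mean level, had 0.0125 RPKM in the Daxx-deleted library and 0.00866 RPKM in the control, a ratio of 1.45 with 402 copies.

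The 8 RLTR9 families spanned log2 changes of -1.12 to 0.49. Their median was 0.19, or 0.01 above the median family. Of the 8, 6 were above their control value, close to the 78.9% of all families, and RLTR9A2 and RLTR9C were below it. Their summed level was 0.422 RPKM in the Daxx-deleted library and 0.396 RPKM in the control, a ratio of 1.06. Without RLTR9E the sums were 0.230 RPKM in the Daxx-deleted library and 0.227 RPKM in the control, a ratio of 1.01.

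**Figure D2:**
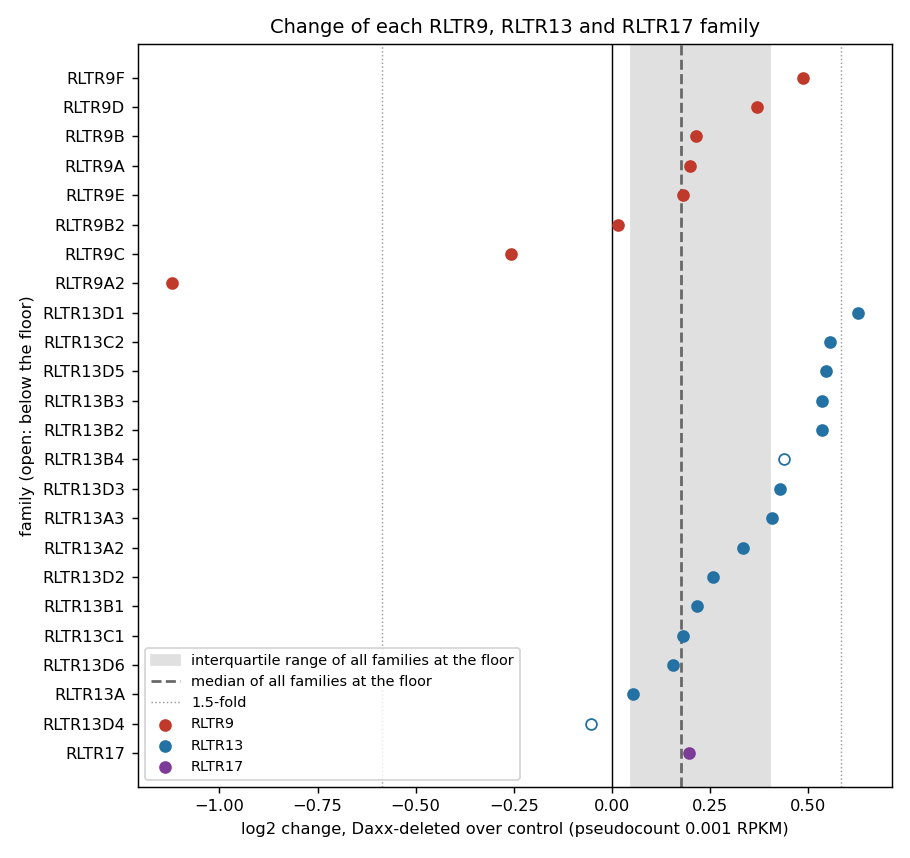
Log2 change (Daxx-deleted over control, 0.001 RPKM added) of each of the 24 families, with the median (dashed) and the interquartile range (shaded) of all 436 families at the floor and lines (dotted) at 1.5-fold; open points lie below the floor. The RLTR13 points at the floor run from 0.05 to 0.63, and the RLTR9 points from -1.12 to 0.49.

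The RLTR13 families had a lower median level than the RLTR9 families, and every RLTR13 family at the floor lay on the same side of its control value. A difference in direction from RLTR9 was not tested. Of the 13 at the floor, 13 were above their control value, against 78.9% of all families and 69 of the 81 other ERVK LTR families. Of the same 13, 11 lay above the median family. Their median level was 0.0249 RPKM in the Daxx-deleted library and 0.0172 RPKM in the control. RLTR9 had medians of 0.0389 RPKM in the Daxx-deleted library and 0.0347 RPKM in the control. The median log2 change of RLTR13 was 0.41, so 0.23 above the median family. Their sums were 0.342 RPKM in the Daxx-deleted library and 0.266 RPKM in the control, a ratio of 1.29. Kept multi-mapped reads can be held by several of these related families, so the 13 are not independent.

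RLTR13D is the largest of the RLTR13 subgroups, with 6 families, and it holds both the RLTR13 family of highest level and the one of largest change. RLTR13D6 had 0.0412 RPKM in the Daxx-deleted library and 0.0369 RPKM in the control, a ratio of 1.12 with 1232 copies. RLTR13D5 had 0.0158 RPKM in the Daxx-deleted library and 0.0105 RPKM in the control, a ratio of 1.502 with 628 copies. The family known from ES cell enhancers, RLTR13D6, thus had the higher level in both libraries and the smaller ratio, and the one known from trophoblast stem cells, RLTR13D5, the lower level and the larger ratio. The difference between these ratios could not be tested. RLTR13 families without a lineage named here had ratios like either one. RLTR13D1 (1.59) and RLTR13B2 (1.48) were near RLTR13D5, and RLTR13C1 (1.14) and RLTR13B1 (1.17) near RLTR13D6. Whether the ratios follow the lineages was not tested, and a single pair of families cannot show it.

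RLTR13D1 had 0.0194 RPKM in the Daxx-deleted library and 0.0122 RPKM in the control, a ratio of 1.59 and a log2 change of 0.63, with 751 copies. RLTR13D3 had 0.0307 RPKM in the Daxx-deleted library and 0.0225 RPKM in the control, a ratio of 1.36. RLTR13D2 had 0.0172 RPKM in the Daxx-deleted library and 0.0142 RPKM in the control, a ratio of 1.21. RLTR13D4, below the floor, was the 1 RLTR13 family with a lower value, at 0.00854 RPKM in the Daxx-deleted library and 0.00890 RPKM in the control, a ratio of 0.960.

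In the RLTR13B subgroup, 3 of 4 families had nearly the same ratio. RLTR13B3 had 0.0357 RPKM in the Daxx-deleted library and 0.0243 RPKM in the control. RLTR13B2 had 0.0254 RPKM in the Daxx-deleted library and 0.0172 RPKM in the control. RLTR13B4, below the floor, had 0.00781 RPKM in the Daxx-deleted library and 0.00551 RPKM in the control. The ratios were 1.47 for RLTR13B3, 1.48 for RLTR13B2 and 1.42 for RLTR13B4. RLTR13B1, with 827 copies the most numerous of the subgroup, had 0.0181 RPKM in the Daxx-deleted library and 0.0154 RPKM in the control, a ratio of 1.17.

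The pair of RLTR13C families differed in ratio. RLTR13C2, with 929 copies, had 0.0237 RPKM in the Daxx-deleted library and 0.0158 RPKM in the control, a ratio of 1.4999. RLTR13C1, with 471 copies, had 0.0317 RPKM in the Daxx-deleted library and 0.0279 RPKM in the control, a ratio of 1.14. The levels lay closer together in the Daxx-deleted library than in the control.

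The 3 RLTR13A families have 143 to 375 copies each and 761 in all, fewer than any other RLTR13 subgroup. RLTR13A2 had 0.0381 RPKM in the Daxx-deleted library and 0.0301 RPKM in the control, a ratio of 1.27. RLTR13A had 0.0249 RPKM in the Daxx-deleted library and 0.0240 RPKM in the control, a ratio of 1.04. RLTR13A3 had 0.0202 RPKM in the Daxx-deleted library and 0.0150 RPKM in the control, a ratio of 1.35. RLTR13A was the RLTR13 family at the floor that lay nearest to its control value.

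RLTR17, the most numerous of the 24 families with 2693 copies, had 0.0640 RPKM in the Daxx-deleted library and 0.0558 RPKM in the control. Its ratio was 1.15 and its log2 change 0.20, 0.02 above the median family. It had the second highest level of the 24 in both libraries, and ranked 26th of the 150 ERVK families by mean level. RLTR17 and RLTR9E, the families with the highest levels, thus had nearly the same ratio.

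**Figure D3:**
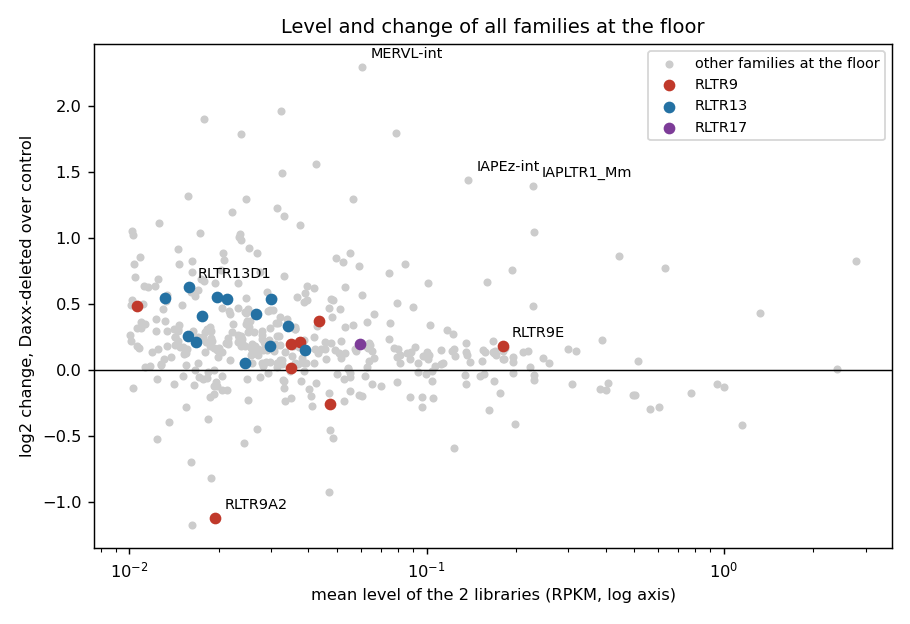
Mean RPKM of the 2 libraries (log axis) against the log2 change (Daxx-deleted over control) of the 436 families at the floor, with RLTR9, RLTR13 and RLTR17 coloured. MERVL-int lies at 2.30, IAPEz-int at 1.44 and IAPLTR1_Mm at 1.40, and the coloured points lie between -1.12 and 0.63.

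The log2 changes were also set against the levels of these LTRs. Over the 22 families at the floor, Spearman's rho between mean level and log2 change was -0.51, and over all 436 families it was -0.26. The floor is on the mean of both libraries, so it keeps a low family with a high Daxx-deleted value, such as RLTR9F. It leaves out RLTR13D4, whose control value was above that of RLTR9F, and RLTR13B4, which was below 0.01 RPKM in both libraries. The 22 also mix RLTR13, of lower median level and larger median change, with RLTR9, and rho within a group was not computed. Over all 24 families, without the floor, rho was -0.39. RLTR9A2, at a low mean level, had the lowest log2 change of the 24. With the number of copies rho was -0.03 over the 22. These are descriptions across families that share the same 2 libraries. The order of the 24 families by level was largely kept between the libraries, with a rho of 0.92.

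Beside selected families with large ratios in this table, the LTRs described here had small ones. Small ratios were not particular to them. The 81 other ERVK LTR families at the floor had a median ratio of 1.17, beside 1.19 for the 22 here. Of those 81, 2 were at least 2-fold higher, against 5.28% of all families. IAPLTR1_Mm, an LTR of the intracisternal A-particle (IAP), had 0.3303 RPKM in the Daxx-deleted library and 0.125 RPKM in the control. MT2_Mm, the LTR of the 2-cell embryo ERV MERVL, had 0.0637 RPKM in the Daxx-deleted library and 0.0210 RPKM in the control, which puts it level with RLTR17 in the Daxx-deleted library and below RLTR17 in the control. RLTR10C, another ERVK LTR, had 0.0487 RPKM in the Daxx-deleted library and 0.0167 RPKM in the control. RLTR10E, also ERVK and near RLTR9E in level, had 0.166 RPKM in the Daxx-deleted library and 0.187 RPKM in the control. The ratios were 2.64 for IAPLTR1_Mm, 3.03 for MT2_Mm, 2.92 for RLTR10C and 0.885 for RLTR10E, against 1.59 at most among the 24 families.

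**Figure D4:**
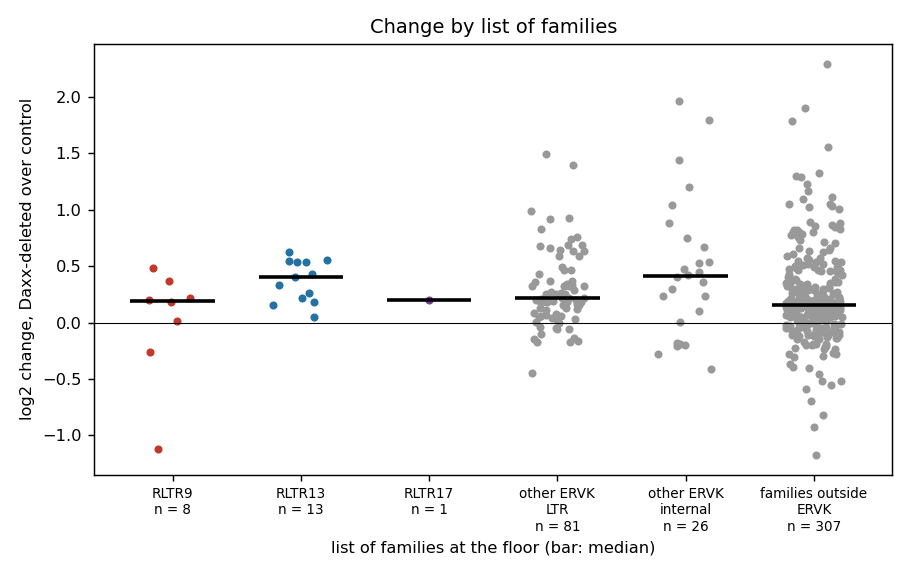
Log2 change (Daxx-deleted over control) of each family at the floor by list, with a bar at the median. The medians are 0.19 for RLTR9, 0.41 for RLTR13, 0.20 for RLTR17 (1 family), 0.22 for the other ERVK LTRs, 0.41 for the ERVK internal parts and 0.16 for the families outside ERVK.

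The ERVK internal parts had a median of 0.41 over 26 families, with values from -0.41 to 1.96. RLTR13 had a like median with a narrower range of 0.05 to 0.63. Of the other ERVK LTR families, 17 of 81 were at least 1.5-fold higher, against 1 of 22 here and 15.1% of all families. The difference was not tested, and the count of 1 depends on the cut. RLTR13D5 (1.502), RLTR13C2 (1.4999), RLTR13B2 (1.48) and RLTR13B3 (1.47) had plain ratios near 1.5. The median log2 changes were close, at 0.24 for the 22 and 0.22 for the 81.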

How the data were processed

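Total RNA of 2 mouse ES cell cultures was sequenced as TruSeq libraries, per the labels' protocols. Per the info sheet, the authors used JAGuaR 2.1, a BWA-based aligner with exon junctions of Ensembl 67, on mm9. BWA 0.7.10 is named in the submitters' processing notes. The deposited RPKM values rest, per that sheet, on the exonic reads of protein-coding genes, less the 0.5% of exons with most reads and the mitochondrial and ribosomal proteins. Multi-mapped reads were kept. Not given in the sources used here are the repeat annotation, any use of strand and how such reads were shared. A multi-mapped read can count for related families, and a family's RPKM also moves with the exonic total. The number of elements per family was deposited beside the RPKM.

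The column named for 4-OHT was matched to the 4-hydroxytamoxifen sample and the control column to the DMSO sample (titled WT) by the words of the headers alone, and 0 columns of other samples were present. With 1 library per group nothing was fitted and no p-value exists. Whole reads were sought in the 40 families with the fewest expected reads: at best 7 of their ratios lay within 0.1% of a ratio of whole numbers up to 10 after a common scaling, and 1 at the median of 4000 scalings, so depth was not recovered. The families, lists, floor, pseudocount and alternatives were chosen with earlier results of these data known. All 24 families are named, with 6 others for comparison. Only the arithmetic of the calculation was checked, on made-up data, and the error of the measured ratios was not tested. Alternatives were other pseudocounts, floors and copy minimums, subtraction of the median family and ratios of sums. Calculations ran in pandas 2.3.3 and numpy 2.4.6 under Python 3.11.15, and plots in matplotlib 3.10.9.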

Additional observations from a re-analysis of the deposited data

How the results depend on the processing

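A median was counted as moved beyond 0.1 on the log2 scale, a single family beyond 1.5-fold, and a count beyond 1.5 times. With a pseudocount of 0.1 RPKM, well above most values, the medians were 0.062 over all 22 families, 0.052 for RLTR9, 0.067 for RLTR13 and 0.075 for RLTR17, and RLTR9A2 had -0.18. The median over all 436 families was then 0.047. With 0.01 RPKM the RLTR13 median was 0.27, beside 0.14 over all 436 families. After subtraction of the median family the medians were 0.061 over all 22, 0.015 for RLTR9, 0.23 for RLTR13 and 0.020 for RLTR17. The ratio of sums gave 0.090 for RLTR9. With at least 1000 copies, RLTR13 kept 1 family, at 0.16. The count of 1 family at least 1.5-fold higher became 0 with pseudocounts of 0.01 and 0.1 RPKM, after subtraction, with a floor of 0.05 RPKM and with at least 1000 copies. The count of 1 at least 1.5-fold lower became 0 with 0.1 RPKM, at 0.05 RPKM and at 1000 copies, and that at 2-fold also with 0.01 RPKM. Over all families the 1.5-fold lower count went from 6 of 436 to 0 with 0.1 RPKM. It was 1 of 145 at the 0.05 RPKM floor and 0 of 257 with at least 1000 copies. These stricter limits left 2 and 4 of the 24 families. No RLTR13 family reached the 0.05 RPKM floor. No other alternative changed a count at 1.5-fold or 2-fold, and no median changed sign. Above their control value were 20 of 22 families and 13 of 13 RLTR13 families at the floor. These were 21 of 24 and 14 of 15 without it, and 17 of 22 and 11 of 13 lay above the median family. Without the floor, an alternative chosen after seeing the data, rho between level and log2 change was -0.39, against -0.51 with it. Of the alternative values of the counts and medians, 44 stayed and 23 moved. Of the single families' alternative values, 139 stayed within 1.5-fold and 1 moved. Floors and copy minimums cannot alter a single family's value, and most families changed by less than that limit. The tally of single families was therefore largely fixed in advance and says little about how stable they are. RLTR13D5 and RLTR13C2 had plain ratios of 1.502 and 1.4999 and both fell short of 1.5-fold with the pseudocount. Unknown depth leaves the counting error of every value unknown. No paired analysis was possible because there is a single library per condition.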
